A study of Mus musculus with 12 samples.

Results

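Ephrins and Eph receptors were examined in C57MG cells, a mouse mammary epithelial cell line, through 10 of the 27962 gene names on the array: the ephrins *Efna1*, *Efnb1*, *Efnb2* and *Efnb3* and the receptors *Epha2*, *Epha4*, *Epha7*, *Ephb2*, *Ephb3* and *Ephb4*. All probes on the array that carry one of these symbols were taken, which gave 15 of the 41174 probes. Monolayers were treated for 24 h with recombinant Rspo2 at 100 ng/ml, recombinant Wnt3a at 100 ng/ml, both proteins at these doses, or the carrier protein bovine serum albumin (BSA). RNA from 3 monolayers per group was hybridized in a single color, so that 12 arrays were available, and the findings concern this 1 cell line at 1 time point.

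Ephrins are ligands held in the plasma membrane, and Eph receptors are the receptor tyrosine kinases that bind them on neighboring cells. A-type ephrins are anchored by a lipid, whereas B-type ephrins span the membrane and can signal back into the cell that carries them. The family sorts and positions cells in many epithelia, including the intestinal crypt and the mammary gland, and several of its genes are known targets of Wnt/β-catenin signaling. Rspo2 is a secreted protein that enhances the response of cells to Wnts such as Wnt3a.

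The scanner files hold intensities and no probe sequence, so the sequences shown here are the 250 bases before the annotated start of a gene. They belong to *Efnb2* and *Efnb1*, the ephrins that rose with the combination, and to *Epha2*, a receptor with no change past the test. They are given for RefSeq on GRCm38.p6, 5′ to 3′ on the strand of the gene: *Efnb2* on the minus strand at chr8:8661243-8661492, *Efnb1* on the plus strand at chrX:99135811-99136060 and *Epha2* on the plus strand at chr4:141300971-141301220. Capitals mark CTTTG, the core of the motif bound by TCF/LEF factors, and the GC box GGGCGG, each searched on both strands.
Efnb2: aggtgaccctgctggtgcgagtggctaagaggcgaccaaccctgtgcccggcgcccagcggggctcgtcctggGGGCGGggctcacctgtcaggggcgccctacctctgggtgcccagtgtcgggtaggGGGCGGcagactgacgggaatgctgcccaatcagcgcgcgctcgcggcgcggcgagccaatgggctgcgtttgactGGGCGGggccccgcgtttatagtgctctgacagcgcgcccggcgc
Efnb1: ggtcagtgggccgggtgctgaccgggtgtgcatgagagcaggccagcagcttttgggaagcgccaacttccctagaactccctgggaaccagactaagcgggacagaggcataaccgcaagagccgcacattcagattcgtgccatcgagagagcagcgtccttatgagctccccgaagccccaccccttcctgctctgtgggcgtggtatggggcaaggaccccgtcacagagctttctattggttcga
Epha2: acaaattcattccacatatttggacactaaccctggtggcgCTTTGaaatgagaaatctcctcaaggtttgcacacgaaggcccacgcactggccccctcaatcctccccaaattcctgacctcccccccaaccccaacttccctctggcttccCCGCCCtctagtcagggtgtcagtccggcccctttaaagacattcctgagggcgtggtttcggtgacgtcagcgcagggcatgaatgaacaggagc
The *Efnb2* sequence had 3 matches to GGGCGG and none to CTTTG, the *Efnb1* sequence had neither motif, and the *Epha2* sequence had 1 match to each, the CTTTG beginning 209 bases before the start. Of 32851 promoters of the same length in the table, 48.6% held CTTTG and 32.7% held GGGCGG. Entries were found for 9 of the 10 genes, with 11 starts, of which 2 held CTTTG and 9 held GGGCGG. A match is a description of these letters only, and other sequence around the genes was not examined.

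Transcripts of 8 of the 10 genes were detected. The scanner software marks a spot as well above background when its signal clearly exceeds the local background, and 11 of the 15 probes carried this mark on all 12 arrays: 1 each for *Efna1*, *Efnb1*, *Efnb3*, *Epha2* and *Ephb3*, and 2 each for *Efnb2*, *Ephb2* and *Ephb4*. No member probe was saturated. The remaining 4 probes, for *Epha4* and *Epha7*, were not tested. Of these receptors, probe A_51_P221762 of *Epha4* had background-subtracted intensities of 3.16 to 12.7 units and was well above background on none of the arrays, and the spot on the combination replicate 1 array, with an intensity of 475.3 units, was left out because the software had marked it as an outlier. The other *Epha4* probe ranged from 3.91 to 12.1 units and was never well above background. Probe A_52_P306236 of *Epha7* ranged from 3.11 to 13.1 units with no array above background, and probe A_52_P504787 reached 30.7 units on BSA replicate 1, the only array on which it was well above background. Signals at this level give no order of the groups, and no fold change is given for *Epha4* or *Epha7*.

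**Figure D1:**
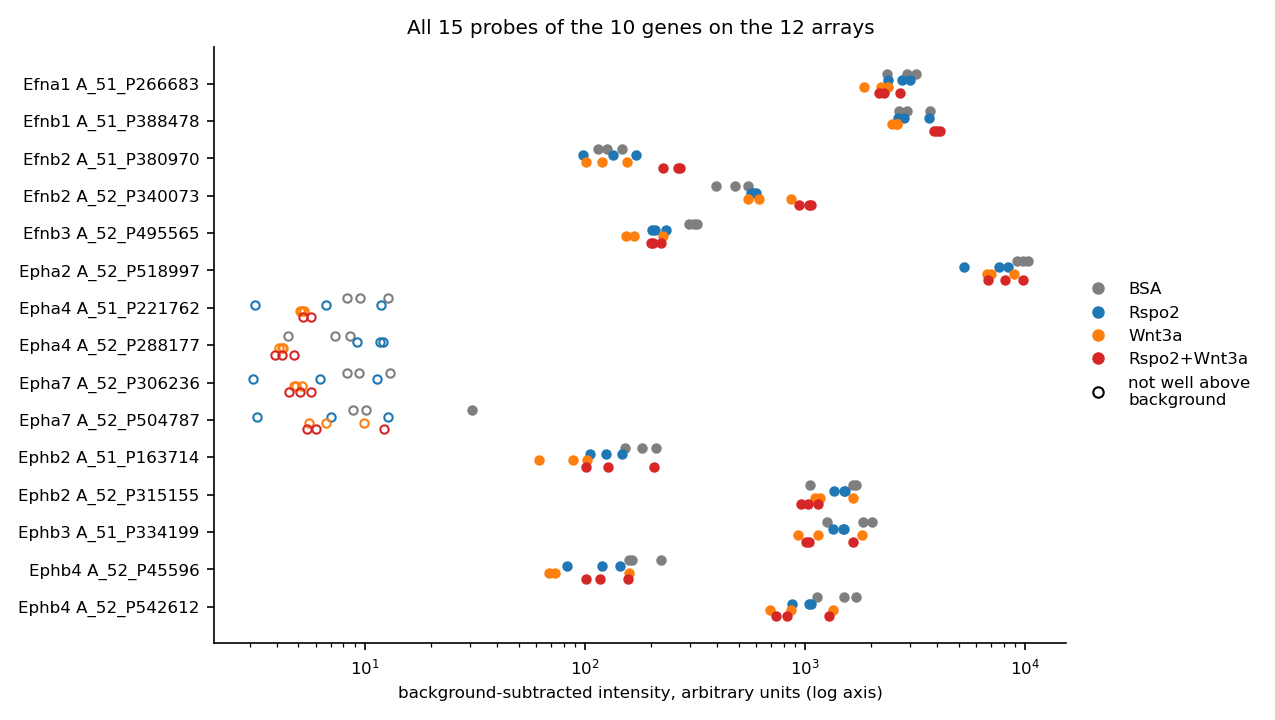
Background-subtracted intensity in arbitrary units (log axis) of the 15 probes on the 12 arrays, 1 point per array, colored by treatment, with filled points for spots well above background. The 4 probes of Epha4 and Epha7 have open points with 1 exception, whereas the other 11 probes are filled on every array.

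Values below are log2 signals from which the 75th percentile of each array was subtracted, so that 0 is that percentile and a difference of 1 is a 2-fold change. A probe was tested with limma if 1 or more groups had it well above background throughout, which held for 22750 probes. It was called changed when the Benjamini-Hochberg adjusted p was under 0.05 and the fold change was 2 or more. The 75th percentile lay between 773.9 and 1146 intensity units. The arrays were on 3 slides: the 3 BSA arrays shared slide 1 with Rspo2 replicate 1, the 2 other Rspo2 arrays shared slide 2 with Wnt3a replicates 1 and 2, and the combination shared slide 3 with Wnt3a replicate 3. BSA therefore could not be compared with Wnt3a or with the combination on 1 slide. The labels name biological replicates, each of them a separate monolayer, and p-values measure the spread between these.

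As a check of the treatments, 5 of the 11 Wnt feedback and target genes of a list that were on the array could be tested. Of the rest, *Nkd1*, *Sp5*, *Dkk1* and *Lef1* were well above background on 0 arrays, *Wif1* on no more than 1 and *Lgr5* on no more than 2. With the combination, 4 were called higher than with BSA: *Axin2*, a negative regulator of β-catenin, *Tcf7*, a TCF/LEF factor, *Apcdd1*, a Wnt inhibitor, and *Znrf3*, a ubiquitin ligase that removes Wnt receptors. Of all probes, 1.28% were called higher in this comparison. The other tested gene, *Rnf43*, rose by 0.69 (adjusted p = 0.0181), under 2-fold. *Axin2* was well above background on 3 arrays, all with the combination, so it entered the test only through that group. It was at least 9.39-fold higher there than with BSA, where no array had it well above background. *Tcf7*, *Apcdd1* and *Znrf3* were well above background on all 12 arrays. *Tcf7* was 5.95-fold higher with the combination (log2 change 2.57, adjusted p = 2.99e-07). With Wnt3a alone 1 of the 5, each read by its brightest probe, was called, *Tcf7* (log2 change 1.07, adjusted p = 0.000369), where 2.52% of all probes were called. With Rspo2 alone limma called 0 of the 5 by these probes, where 0.721% of all probes were called. At an unadjusted p under 0.05 in limma the count was also 0, against 35% of all probes. The other *Tcf7* probe rose with Rspo2 by 0.54 (adjusted p = 0.036), under 2-fold. The label of a mammary epithelial line was only partly borne out by markers. *Krt8*, *Krt14* and *Trp63* were well above background on all arrays, but of the luminal markers *Cdh1* was so on 0 arrays, *Krt19* on 2 and *Krt18* on 3, and all 5 mesenchymal markers tested, such as *Vim* and *Col1a1*, were detected.

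*Efnb2*, which encodes ephrin-B2, a ligand of EphB4 and other EphB receptors, was the only member called changed. Both of its probes rose at least 2-fold with the combination of Rspo2 and Wnt3a relative to BSA. The call thus covered 2 of the 11 member probes, while 5.08% of all probes were called in this comparison and 1.28% were called higher. The probes target 60 bases each of the same transcript, A_52_P340073 at chr8:8588062-8588121 and A_51_P380970 at chr8:8589107-8589166 as the scanner files give them, without naming the genome build.

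Probe A_52_P340073 gave -1.28, -1.25 and -0.97 with BSA. With Rspo2 it gave -0.76, -0.62 and -0.45, and with Wnt3a -0.05, -0.32 and -0.55. With the combination it gave 0.18, -0.03 and -0.02, above every array of the other groups. The BSA arrays were the lowest, without overlap with any treatment, and the Rspo2 and Wnt3a arrays overlapped. Group means were -1.16 ± 0.17, -0.61 ± 0.16, -0.31 ± 0.25 and 0.04 ± 0.12 (SD, 3 arrays each) for BSA, Rspo2, Wnt3a and the combination. The increase over BSA was 1.47-fold with Rspo2 (log2 change 0.55, SE 0.14, adjusted p = 0.028), 1.81-fold with Wnt3a (0.86, SE 0.14, adjusted p = 0.0019) and 2.31-fold with the combination (1.21, SE 0.14, adjusted p = 0.000112).

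Probe A_51_P380970, of lower intensity, gave -2.69, -3.31 and -3.09 with BSA, -2.58, -2.72 and -3.01 with Rspo2, and -2.54, -2.93 and -2.75 with Wnt3a. With the combination it gave -1.83, -2.08 and -1.97. Only the combination stood apart, and the other 3 groups overlapped. The increase with the combination was 2.11-fold (log2 change 1.07, SE 0.17, adjusted p = 0.000764), whereas the changes with Rspo2 (0.27, 95% interval -0.11 to 0.64) and with Wnt3a (0.30, 95% interval -0.08 to 0.67) did not pass the test.

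In the order of the group means of both probes, from BSA through Rspo2 and Wnt3a to the combination, Rspo2 and Wnt3a did not differ beyond their spread (adjusted p = 0.351 and 0.952). The combination exceeded Rspo2 alone on both probes, by 0.65 (adjusted p = 0.00913) on A_52_P340073 and by 0.81 (adjusted p = 0.00805) on A_51_P380970. Against Wnt3a alone, the difference passed the test on A_51_P380970 (0.78, adjusted p = 0.0265). On A_52_P340073 it did not (0.35, 95% interval 0.04 to 0.66, adjusted p = 0.212). The lowest combination array was above the highest Wnt3a array on both probes, but on A_52_P340073 only narrowly (-0.03 against -0.05). The interaction, meaning the log2 change of the combination minus those of the single proteins, was 0.51 (95% interval -0.01 to 1.04) on A_51_P380970 and -0.20 (95% interval -0.64 to 0.23) on A_52_P340073. A departure from additive log2 changes was therefore not detected on either probe, whose estimates differ in sign.

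Within slides, Rspo2 replicate 1 exceeded the mean of BSA by 0.40 on A_52_P340073 and by 0.45 on A_51_P380970, Wnt3a exceeded Rspo2 by 0.35 and 0.13, and the combination exceeded Wnt3a replicate 3 by 0.59 and 0.79. When the fit held a term for slide, the combination differed from BSA by 1.35 (adjusted p = 0.0426) and 1.37 (adjusted p = 0.14), so that the call of A_51_P380970 was lost. With normexp background correction the changes were 0.98 (adjusted p = 0.0164) and 0.60 (adjusted p = 0.446), and neither probe was called. Those against Rspo2 alone were then 0.44 (adjusted p = 0.25) on A_52_P340073 and 0.04 (adjusted p = 0.944) on A_51_P380970, and they also missed the threshold with slide in the fit (0.94, adjusted p = 0.0551, and 0.92, adjusted p = 0.167). The rise with Wnt3a on A_52_P340073 missed it as well under normexp (0.64, adjusted p = 0.138) and with slide (0.75, adjusted p = 0.185). The call of A_51_P380970 was also lost without BSA replicate 2, where the change was 0.93, just under 2-fold. The smaller rise with Rspo2 on A_52_P340073 missed the threshold when BSA replicate 1 or 2 or Rspo2 replicate 2 or 3 was left out (adjusted p 0.0634 to 0.107). The difference of A_51_P380970 between the combination and Wnt3a did so without Wnt3a replicate 2 or any 1 of the combination replicates (0.066 to 0.117). That difference also missed the threshold under normexp (0.47) and with slide in the fit (0.79, adjusted p = 0.239).

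**Figure D2:**
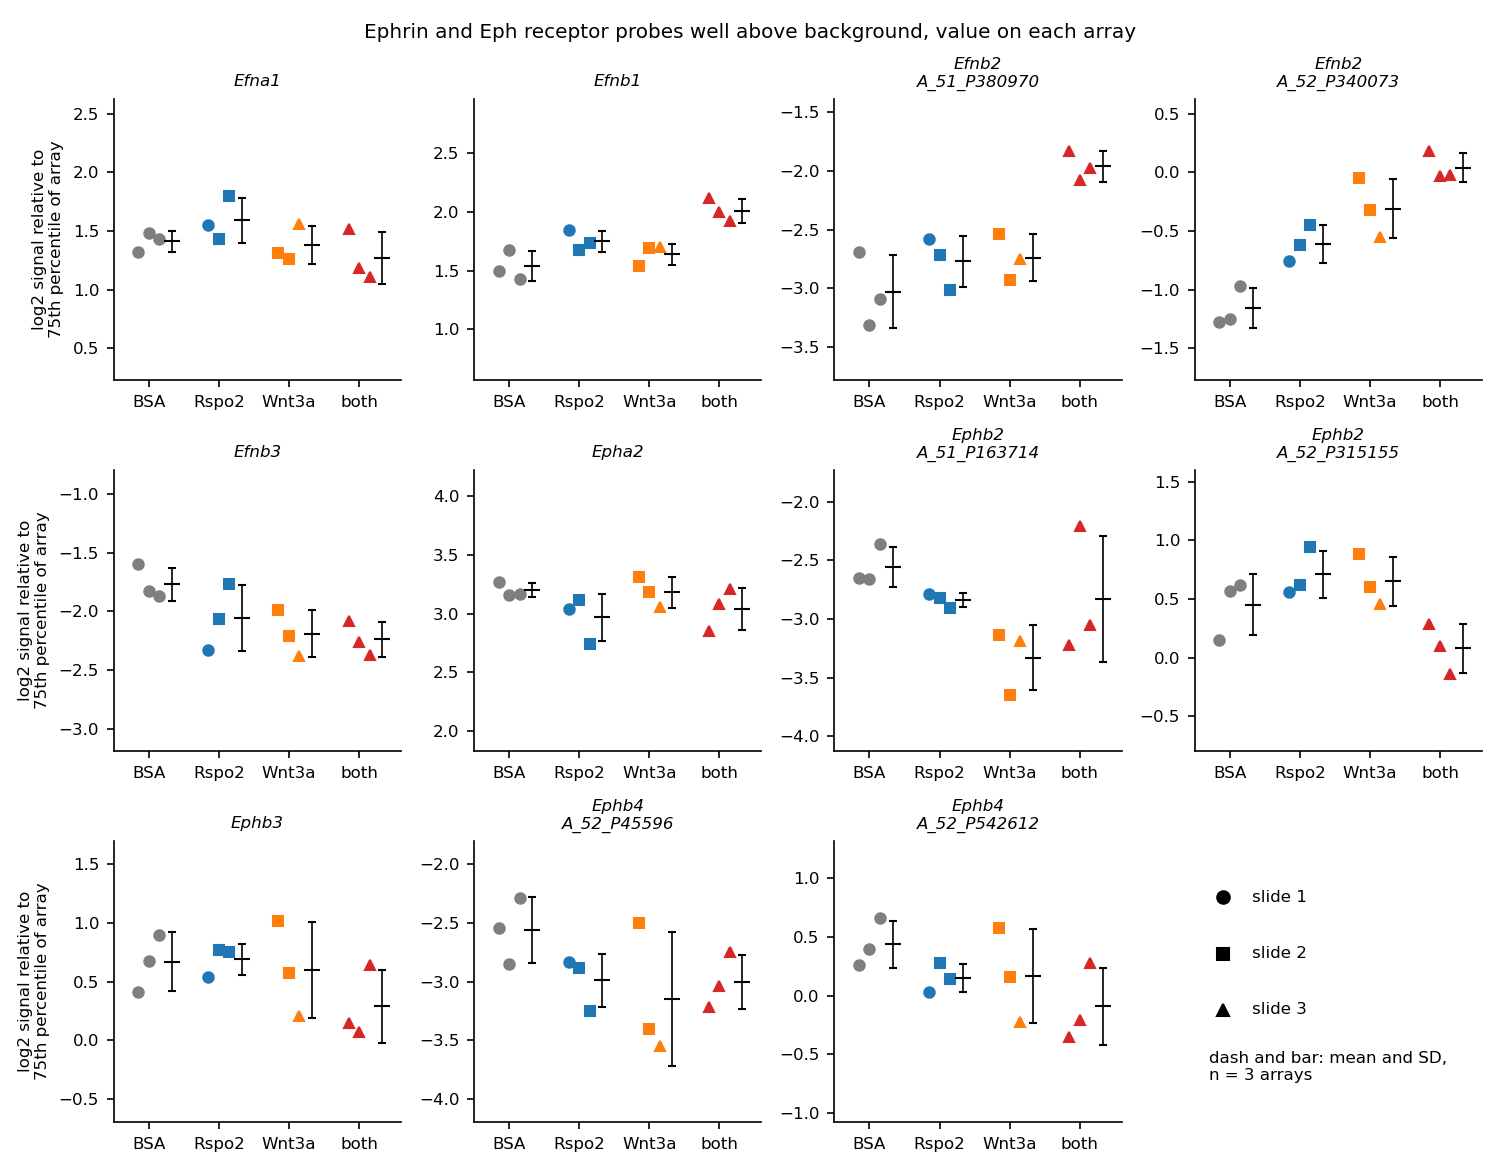
Log2 signal after subtraction of the 75th percentile, by treatment, for the 11 tested probes, with 1 point per array, the shape giving the slide, and the dash and bar giving the mean and SD of 3 arrays; each panel spans the same height. On both Efnb2 probes and on Efnb1 the 3 combination arrays lie above all others, whereas the groups of Efna1, Ephb3 and Ephb4 overlap.

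The other B-type ephrins moved less, and in opposite directions. *Efnb1*, which encodes ephrin-B1, gave 1.50, 1.68 and 1.43 with BSA, 1.85, 1.68 and 1.74 with Rspo2, and 1.54, 1.69 and 1.70 with Wnt3a. With the combination it gave 2.12, 2.0 and 1.92, above all other arrays. It rose 1.39-fold with the combination relative to BSA (log2 change 0.48, SE 0.09, adjusted p = 0.00255). The differences of the combination from Wnt3a (0.37, adjusted p = 0.0526) and from Rspo2 (0.26, adjusted p = 0.0825) missed the threshold, as did the changes with Rspo2 (0.22, adjusted p = 0.126) and with Wnt3a (0.11, adjusted p = 0.409). Adding slide to the fit gave a change of 0.53 (adjusted p = 0.289), and within slide 3 the combination exceeded Wnt3a replicate 3 by 0.31.

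*Efnb3*, which encodes ephrin-B3, gave -1.60, -1.83 and -1.87 with BSA and -2.08, -2.26 and -2.37 with the combination, with no overlap. The Rspo2 arrays gave -2.33, -2.07 and -1.77, and the Wnt3a arrays gave -1.99, -2.21 and -2.38. It fell 1.39-fold with the combination relative to BSA (log2 change -0.47, SE 0.15, adjusted p = 0.0318), and the change with Wnt3a (-0.43, adjusted p = 0.0543) did not pass the test. The decrease missed the threshold without BSA replicate 1 or 2 or combination replicate 2 or 3 (adjusted p 0.0585 to 0.107), and adding slide to the fit gave -0.60 (adjusted p = 0.37).

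*Efna1*, which encodes ephrin-A1, a ligand of EphA2, showed no change past the test. It gave 1.32, 1.48 and 1.43 with BSA and 1.52, 1.18 and 1.11 with the combination. Its change with the combination was -0.14 (95% interval -0.44 to 0.15), and its changes with Rspo2 and Wnt3a were 0.18 (95% interval -0.11 to 0.48) and -0.03 (95% interval -0.33 to 0.26). These intervals leave out a 2-fold change in either direction.

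Among the receptors, no probe was called in any comparison. *Epha2*, the receptor of ephrin-A1, gave 3.27, 3.16 and 3.17 with BSA and 2.85, 3.08 and 3.21 with the combination. The Rspo2 arrays gave 3.04, 3.12 and 2.74, all below the BSA arrays. The changes of *Epha2* were -0.24 (95% interval -0.50 to 0.03, adjusted p = 0.195) with Rspo2, -0.02 (-0.29 to 0.25) with Wnt3a and -0.16 (-0.43 to 0.11) with the combination. A 2-fold change lies outside all of these intervals.

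*Ephb2*, a receptor known as a Wnt target in the intestinal crypt, had 2 probes that disagreed. Probe A_52_P315155, at chr4:136033124-136033183 in the coordinates of the files, gave 0.15, 0.57 and 0.62 with BSA, 0.56, 0.62 and 0.94 with Rspo2, 0.88, 0.60 and 0.46 with Wnt3a, and 0.29, 0.10 and -0.14 with the combination. The combination was lowest, below every Rspo2 and Wnt3a array, and overlapped BSA. The difference from Rspo2 was -0.62 (SE 0.17, adjusted p = 0.0275), and those from Wnt3a (-0.56, adjusted p = 0.0981) and from BSA (-0.36, adjusted p = 0.11) missed the threshold. Its interaction was -0.82 (95% interval -1.35 to -0.30, adjusted p = 0.0547).

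Probe A_51_P163714 of *Ephb2*, which the files place across 1398 bases at chr4:136035998-136037395, gave -2.65, -2.66 and -2.36 with BSA, -2.79, -2.82 and -2.91 with Rspo2, -3.14, -3.65 and -3.19 with Wnt3a, and -3.22, -2.21 and -3.05 with the combination. Here the Wnt3a arrays were all below the BSA arrays, by -0.77 on the log2 scale (SE 0.23, adjusted p = 0.0271), while the combination overlapped all of the other groups. The Rspo2 arrays were also all below the BSA arrays, with a change of -0.28 that did not pass the test (adjusted p = 0.416). On A_52_P315155 the change with Wnt3a was 0.20 (95% interval -0.17 to 0.57). The interaction of A_51_P163714 was 0.78 (95% interval 0.06 to 1.50, adjusted p = 0.141), opposite in sign to that of the other probe, so no direction is given for *Ephb2*. The fall with Wnt3a missed the threshold without any 1 of the BSA replicates or without Wnt3a replicate 2 (adjusted p 0.05 to 0.105), and the fall of A_52_P315155 against Rspo2 did so without Rspo2 replicate 2 or 3 or combination replicate 2 or 3 (0.0572 to 0.102). Adding slide to the fit gave -0.76 (adjusted p = 0.508) for the former and -0.42 (adjusted p = 0.48) for the latter. Under normexp the values were -0.62 (adjusted p = 0.508) and -0.54 (adjusted p = 0.234).

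*Ephb3*, a receptor of B-type ephrins, gave 0.41, 0.68 and 0.90 with BSA and 0.15, 0.07 and 0.64 with the combination. These groups overlapped, and the change was -0.38 (95% interval -0.85 to 0.09). *Ephb3* changed by 0.02 with Rspo2 (adjusted p = 0.953) and by -0.06 with Wnt3a (adjusted p = 0.844). *Ephb4*, the main receptor of ephrin-B2, gave 0.26, 0.40 and 0.66 with BSA and -0.35, -0.21 and 0.28 with the combination on probe A_52_P542612. The change was -0.53 (95% interval -0.99 to -0.07, adjusted p = 0.0638). Its other probe, A_52_P45596, changed by -0.44 (95% interval -1.01 to 0.13), with -2.54, -2.85 and -2.29 for BSA and -3.22, -3.04 and -2.75 for the combination. With Wnt3a, A_52_P45596 changed by -0.59 (95% interval -1.16 to -0.02, adjusted p = 0.105), and with Rspo2 by -0.43 (adjusted p = 0.265). On A_52_P542612 the changes were -0.27 with Wnt3a (adjusted p = 0.352) and -0.29 with Rspo2 (adjusted p = 0.346). None of these changes of *Ephb4* passed the test. For the combination against BSA, adding slide to the fit gave 0.40 (adjusted p = 0.797) on A_52_P45596 and -0.12 (adjusted p = 0.925) on A_52_P542612. No direction is therefore given. A_52_P45596 was the dimmer probe and was not matched to a symbol in RefSeq. Over 29 alternatives of processing, the change of A_52_P542612 with the combination lay between -0.72 and -0.12.

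**Figure D3:**
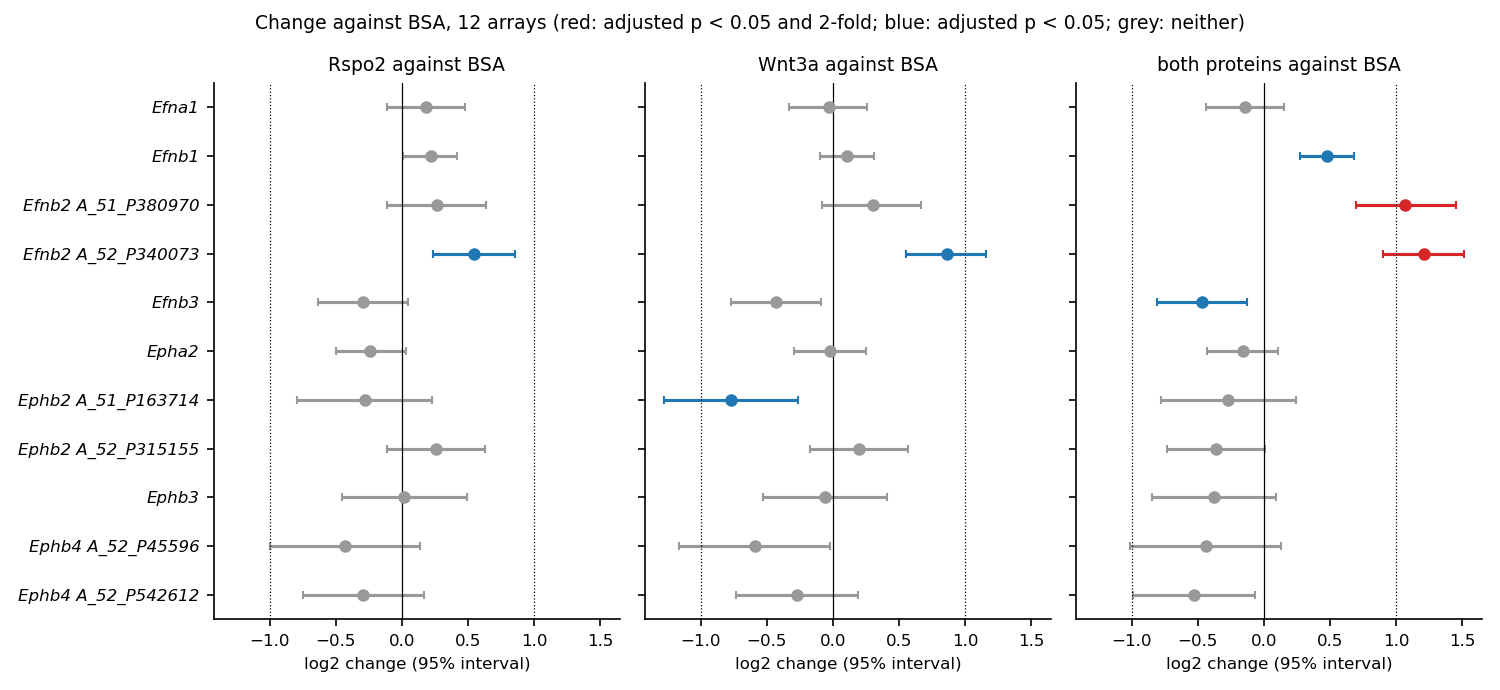
Log2 change against BSA with its 95% interval for the 11 tested probes, in panels for Rspo2, Wnt3a and both proteins, with dotted lines at a 2-fold change and colors for adjusted p under 0.05 with (red) and without (blue) a 2-fold change. Only the 2 Efnb2 probes are red, and only with both proteins.

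Counted over the 11 tested probes, the calls at 2-fold were 0 with Rspo2, where 0.721% of all probes were called, 0 with Wnt3a (2.52% of all probes), 2 with the combination, 0 for the combination against Wnt3a (0.747%), 0 for the combination against Rspo2 (2.67%) and 0 for the interaction (1.93%). At an unadjusted p under 0.05 in limma with no limit on size, 2, 4, 5, 4, 5 and 2 member probes passed in these 6 comparisons, against 35, 43, 47.9, 18.4, 30.8 and 29.3% of all probes, and the methods' t-test, unadjusted, also called 0 at 2-fold in the comparisons with 0 calls, apart from the interaction, where it could not be fitted. With an adjusted p under 0.05 at any size, 1 of 11 passed with Rspo2, where 16.8% of all probes did, 2 with Wnt3a (31.5%), 4 with the combination (39.2%), 1 against Wnt3a (4.27%) and 3 against Rspo2 (16.5%). On counts this small no difference between the members and all probes is read from them, and none was tested. The 3 that passed against Rspo2 were both *Efnb2* probes and *Ephb2* A_52_P315155. The median log2 change of the 11 probes with the combination was -0.27, against 0.04 over all probes, and 8 of the 11 were below 0, the *Efnb1* and *Efnb2* probes being the exceptions. Over all probes 54.4% were above 0, and the 11 probes include 2 each for *Efnb2*, *Ephb2* and *Ephb4*. With Rspo2 and with Wnt3a the medians were 0.02 and -0.03, against 0.01 and 0.00 over all probes.

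Of the 12 other genes of the family, 5 could be tested: the A-type ephrins *Efna3*, *Efna4* and *Efna5* and the receptors *Epha1* and *Ephb6*. None was called in any of the 6 comparisons, and 1 passed an adjusted p under 0.05 with the combination, *Efna3* (log2 change -0.32, adjusted p = 0.0145). *Epha1* was well above background on 6 of the 12 arrays. *Ephb1* was so on 4, *Epha3* and *Epha5* on no more than 1 each, and *Efna2*, *Epha6*, *Epha8* and *Epha10* on 0.

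Of 42 genes that carry signals of Ephs and ephrins into the cell, 38 were tested, each by its brightest probe. With the combination, 0 were called higher and 1 lower, where 5.08% of all probes were called. The gene called lower was *Kalrn*, which encodes the guanine nucleotide exchange factor kalirin, which acts downstream of EphB receptors in neurons. *Kalrn* fell 2.22-fold (log2 change -1.15, SE 0.10, adjusted p = 1.25e-05), and its other probe fell by 1.05 on the log2 scale. It was also lower with the combination than with Rspo2 (-1.05, adjusted p = 3.95e-05), and its change with Rspo2 alone was -0.10 (adjusted p = 0.475). At an adjusted p under 0.05 and any size, 6 of the 38 rose and 6 fell with the combination, where 39.2% of all probes passed. With Rspo2 3 rose and 1 fell (16.8% of all probes), and with Wnt3a 6 rose and 2 fell (31.5%). The list holds 1 probe per gene, and a difference from all probes was not tested. The median log2 change of the list with the combination was -0.01. For *Sipa1l1*, which encodes a regulator of Rap GTPases, a probe other than the brightest was also called (-1.03, adjusted p = 3.96e-05), while its brightest probe changed by -0.83 (adjusted p = 0.00128), under 2-fold.

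Markers of cell types moved with the combination beside *Efnb2*. Of the luminal list 1 of 1 tested gene was called lower, *Krt8* (log2 change -1.15), where 5.08% of all probes were called. Of the basal and myoepithelial list 1 of 4 was called higher by its brightest probe, *Krt14* (1.24). *Acta2* rose by 0.78 on its brightest probe (adjusted p = 7.26e-05) and by 1.00, 1.23 and 1.39 on the others, of which those at 1.23 and 1.39 were called. *Krt5* changed by 0.22 (adjusted p = 0.387). The probes of *Trp63* disagreed (-0.40 on the brightest, adjusted p = 0.0143, and -0.74 and 0.49 on the others). Of the mesenchymal list 1 of 5 was called lower, *Pdgfra* (-1.37). Of endothelial markers, which matter because endothelium is known for *Efnb2* and *Ephb4*, *Pecam1* and *Tek* were well above background on no more than 1 array and *Kdr* on 0, while *Cdh5* was detected and changed by -0.55. Of the leukocyte markers, *Ptprc* was well above background on no more than 1 array, whereas *Cd68* was so on 12 and *Cd3e* on 11, with changes of -0.23 (adjusted p = 0.172) and -0.14 (adjusted p = 0.776). Levels were also summed over the tested genes of a list, in units of each array's 75th percentile. The basal and myoepithelial level was 132 to 140 with BSA and 219 to 257 with the combination. Bright genes weigh most in such a sum, and its 4 genes did not move together. By their brightest probes *Krt14* changed by 1.24, *Acta2* by 0.78, *Krt5* by 0.22 and *Trp63* by -0.40. The mesenchymal level was 199 to 220 with BSA and 218 to 224 with the combination. The endothelial level, which rests on *Cdh5*, was 2.4 to 2.57 with BSA and 1.6 to 1.73 with the combination, lower on every array of the combination. The luminal level, which rests on *Krt8*, was 0.0824 to 0.0905 and 0.0353 to 0.0464, and the leukocyte level over 2 genes was 0.283 to 0.317 and 0.244 to 0.279. The part of these shifts in the result for *Efnb2* was not tested, and fewer cells of a type and less RNA per cell cannot be told apart in such samples.

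The 5 genes whose log2 signals followed *Efnb2* A_52_P340073 most closely over the 12 arrays, among the 20405 probes detected on every array, were *3110045C21Rik* (Pearson r = 0.976), *Mkln1* (0.972), *Ube2l3* (0.970), *Pmm2* (0.970) and *D030070L09Rik* (0.969). The arrays share the same 4 treatments and 3 slides, and so many probes were searched that these values are a description only. *3110045C21Rik* changed by 0.58, 0.86 and 1.11 with Rspo2, Wnt3a and the combination, while *Mkln1* changed by 0.17, 0.21 and 0.32.

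**Figure D4:**
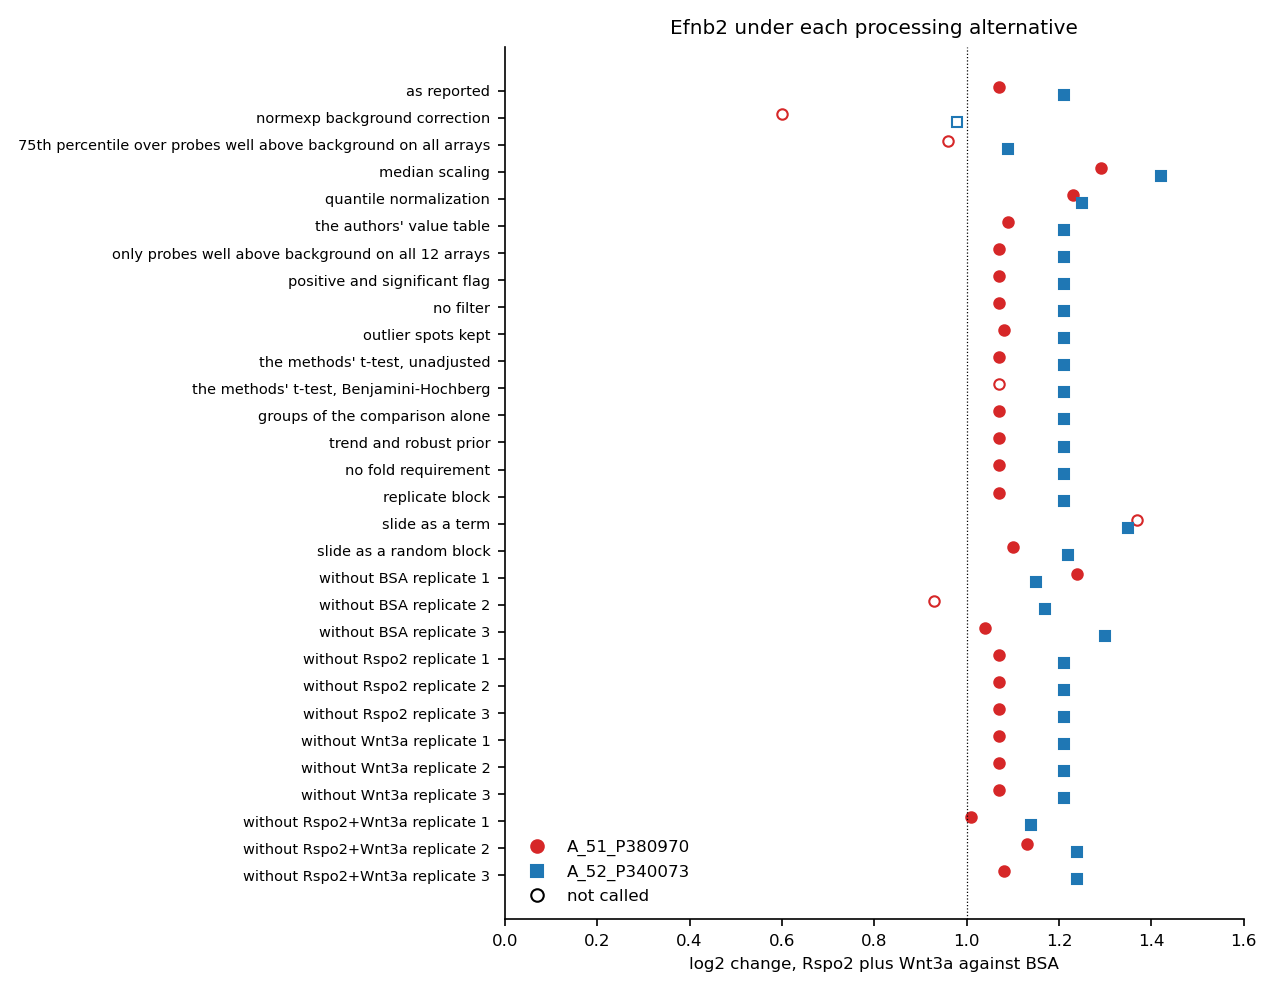
Log2 change of the 2 Efnb2 probes with the combination against BSA as reported and under 29 alternatives of processing, test or sample set, with open symbols where the probe was not called and a dotted line at a 2-fold change. All values lie between 0.60 and 1.42, and the open symbols belong to A_51_P380970 in 5 alternatives and to A_52_P340073 in 1.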

How the data were processed

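RNA of 12 samples (4 groups of 3 C57MG monolayers) was measured on single-color arrays of mouse probes. The intensity values were made by the authors with Agilent Feature Extraction 9.5.3.1, which subtracted background and did not scale between arrays, and the deposited scanner files also hold mean and background intensity and quality flags. The other deposited table holds ratio values, each signal divided by the 75th percentile of its array, and served as an alternative. The genome build of the probe coordinates is not given in the sources used here.

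Values with an outlier or unevenness flag (1327 of 520548 spots) were dropped, replicate spots were averaged, and log2 values were centred on the 75th percentile per array. All p-values come from limma 3.58.1 in R 4.3.3 over 22750 detected probes and 12 arrays, with Benjamini-Hochberg adjustment within each comparison. Each group had to have 2 or more values. The exact permutation test of 3 arrays against 3 cannot pass 0.05 and was not used. Signal over background and the number of arrays limit the precision. All probes of the 10 genes are reported, and in other lists the brightest probe stands for a gene. The most alike genes were the 5 with the highest correlation to the member probe with the largest called change. The members and lists were chosen with earlier results of these data known. Accessions of 13 of the 15 probes matched the same symbol in RefSeq (GRCm38.p6), and no further probe belonged to a member. On simulated data for the combination against BSA (22750 probes), the fit called 92 of 100 probes changed 3-fold, 96 of 100 changed 6-fold and 3 unchanged probes. Smaller changes, such as those of the member probes, were not simulated, so their recovery is not known. The 29 alternatives cover background correction, scaling, filters, tests, blocks for replicate number and slide, and each array left out. Data were handled with the R packages data.table, version 1.17.8, and jsonlite 2.0.0, and figures were drawn with matplotlib 3.10.9 in python 3.11.15.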

Additional observations from a re-analysis of the deposited data

How the results depend on the processing

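The number of member probes called with the combination against BSA, 2 as reported, was 0 with normexp background correction, 1 with the 75th percentile of only those probes that every array detected, 1 with the methods' t-test after Benjamini-Hochberg adjustment, 1 with slide as a term, 4 with no fold requirement, and 1 to 2 when each array was left out in turn. In this comparison the percentile of detected probes moved the median of all probes by -0.11, and normexp moved it by -0.10. Calls over all probes were 330 with normexp, against 1155 as reported. With no fold requirement 1, 2, 1 and 3 probes passed for Rspo2 against BSA, Wnt3a against BSA, and the combination against Wnt3a and against Rspo2. With median scaling 1 probe was called with Wnt3a (*Efnb2* A_52_P340073, 1.18) and 1 in the interaction (*Ephb2* A_52_P315155, -1.10), but this scaling moved the median of all probes by 0.33 and -0.27 in these comparisons, and by 0.22 in the combination against BSA. In the other alternatives run, the counts did not move, which for a count of 0 says only that no probe passed. The change of *Efnb2* with the combination was above 0 in all 29 alternatives, between 0.98 and 1.42 on A_52_P340073 and between 0.60 and 1.37 on A_51_P380970. Its p stayed under 0.05 in 29 and 26 of these. Of the changes under 2-fold, the p stayed under 0.05 in 26 of 29 alternatives for *Efnb1* and in 17 for *Efnb3* with the combination, in 17 for *Ephb2* A_51_P163714 with Wnt3a, and in 18 for *Ephb2* A_52_P315155 in the combination against Rspo2. The cause was not tested. Replicate numbers did not pair the samples, since 4 of 18 same-numbered pairs had deviations correlated above 0.1, and with the replicate block 2 member probes were called with the combination against BSA and 0 in the other comparisons. In the interaction the groups of a comparison alone and the t-tests could not be fitted.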
